A study of Mus musculus with 14 samples.

Results

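The 10 genes described here encode chemokines that epithelium and other cells of mucosal tissue release or display: Cxcl1, Cxcl2, Cxcl5, Cxcl9, Cxcl10, Cxcl16, Ccl20, Ccl25, Ccl28 and Cx3cl1. They were chosen by symbol from the 46882 entries of the deposited expression table, and all 10 were found and had reads in every library. RNA of whole ileum, the last stretch of the small intestine, was measured in 14 C57BL/6N mice, a common inbred strain. The groups were untreated mice at postnatal day 24 (P24, n = 4), untreated mice at postnatal day 14 (P14, n = 4), mice given recombinant mouse Il22 (rmIl22, n = 3) and mice given phosphate-buffered saline alone (PBS, n = 3). Per the labels' protocols, both injected groups were treated on days 14 and 15 and killed on day 16, the rmIl22 mice with 0.1 µg per g body weight in 100 µL of saline into the peritoneum. The age field of the labels instead gives day 14 for PBS mice and day 24 for rmIl22 mice. The labels give no sex, and the titles call all mice WT. Levels are in TPM, which scales a gene's reads for its length and to the same total in each library, and libraries carry the numbers of their columns: 1, 2, 6 and 8 at P24, 1, 2, 4 and 5 at P14, and 1 to 3 in each injected group.

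Chemokines are small secreted proteins that bind G protein-coupled receptors and direct the movement of white blood cells. In the small intestine Ccl25 draws lymphocytes that carry Ccr9, Ccl28 draws IgA plasmablasts that carry Ccr10 and eosinophils that carry Ccr3, and Ccl20 draws Ccr6-bearing B cells and dendritic cells to the epithelium over lymphoid follicles. Cxcl1, Cxcl2 and Cxcl5 recruit neutrophils through Cxcr2, and Cxcl9 and Cxcl10 recruit T cells through Cxcr3. Cx3cl1 and Cxcl16 are made as membrane-anchored proteins that the sheddases Adam10 and Adam17 can release, and their receptors are Cx3cr1 and Cxcr6. IL-22 is a cytokine of innate and T lymphocytes that acts on epithelium through STAT3.

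Whole reads were recovered from the TPM, and they totalled 35.6 to 46.5 M reads per library. All 9 epithelial marker genes had reads in every library, and their summed level was 10379 to 13218 TPM at P24, against 5397 to 6922 TPM at P14, with no overlap, and limma called 4 of the 9 higher and 1 lower at P24. It was 10154, 6213 and 7349 TPM in rmIl22 libraries 1, 2 and 3, against 6881, 6734 and 7983 TPM in PBS libraries 1, 2 and 3. Library 2 of the rmIl22 group stood apart in its neutrophil markers, which summed to 1079 TPM, against 18.6 and 205 TPM in rmIl22 libraries 1 and 3 and 65.0, 101 and 30.8 TPM in PBS libraries. Xist, the transcript of the silenced X chromosome, was above 28 TPM in P24 libraries 2, 6 and 8, P14 libraries 4 and 5 and rmIl22 libraries 2 and 3, and it was at most 0.160 TPM in the other libraries, the 3 PBS libraries included. Tissue of whole ileum holds many cell types, so fewer cells of a type and less RNA per cell cannot be told apart.

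Between days 14 and 24, Ccl25, Ccl28 and Cxcl10 rose and Cx3cl1 fell. Of the 10 chemokines 6 passed the filter of at least 1 TPM in at least 4 libraries, and with limma 3 of these were called higher at P24 and 1 lower at a Benjamini-Hochberg adjusted p under 0.05. Of all 14651 genes tested 58.3% were called, 14.6% as higher and 43.7% as lower, so a call by itself was common in this comparison. Cxcl10 passed the filter only through the P24 libraries, where it was high. The sum of the 10 chemokines was 430 to 479 TPM at P24, against 222 to 284 TPM at P14. Ccl25 alone made up 74.0% to 77.8% of that sum at P24, against 45.1% to 47.9% at P14. In the injected mice the same sum was 331 to 440 TPM with rmIl22, against 321 to 326 TPM with PBS, and the share of Ccl25 was 42.4% to 65.9% with rmIl22, against 53.6% to 55.9% with PBS.

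**Figure D1:**
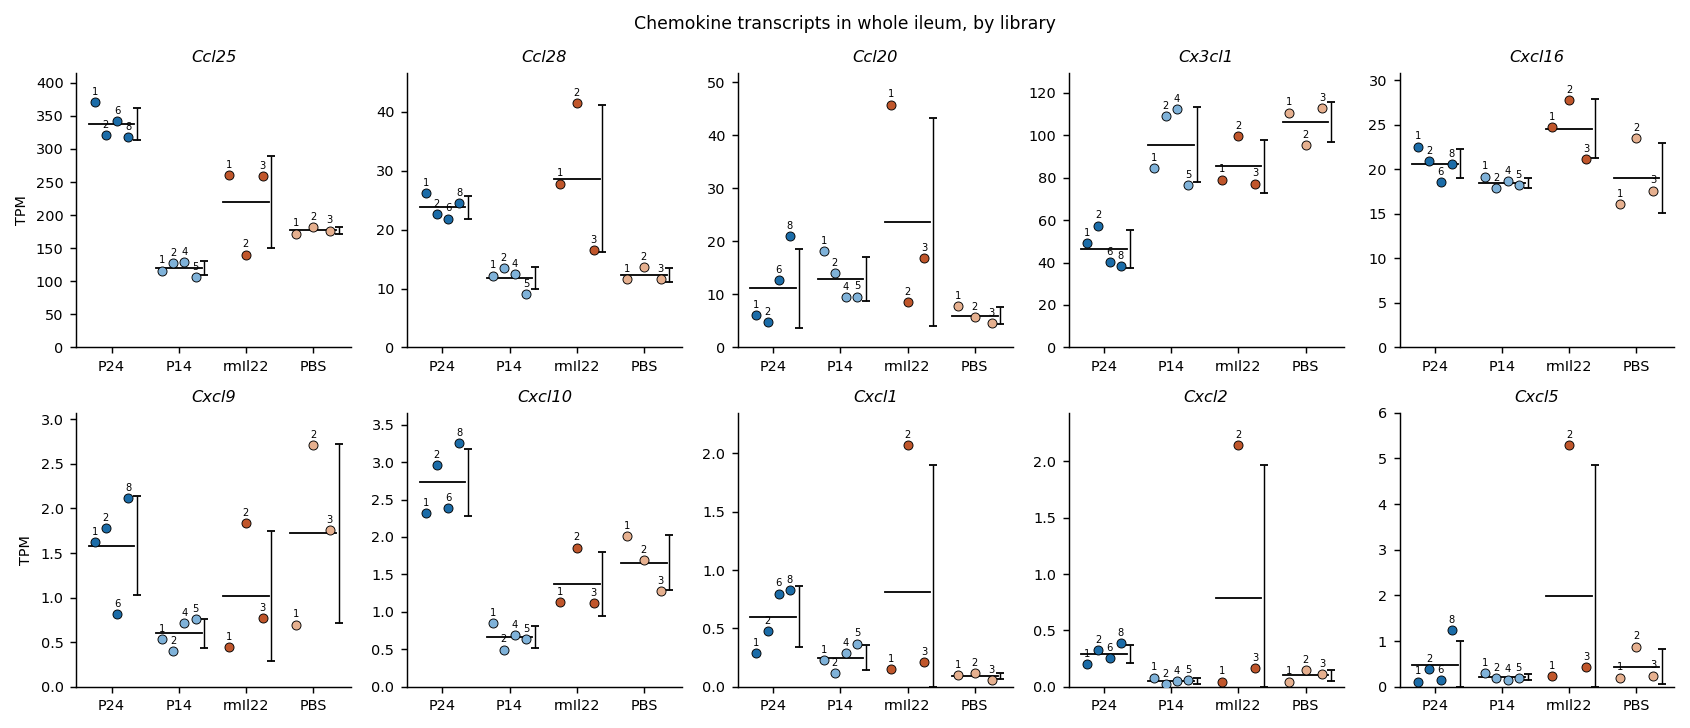
Level of each chemokine gene in every library, in TPM on linear axes that start at 0; points are libraries with their library number, horizontal lines are group means and bars are 1 SD, with lower ends cut at 0 (n = 4 at P24 and P14, n = 3 for rmIl22 and PBS). All P24 points of Ccl25 lie between 318 and 371 TPM, above all P14 points, and all P24 points of Cx3cl1 lie between 38.1 and 57.4 TPM, below all P14 points.

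Ccl25 was the most abundant of the chemokines in every library. It had 371, 321, 342 and 318 TPM in P24 libraries 1, 2, 6 and 8, against 116, 128, 129 and 106 TPM in P14 libraries 1, 2, 4 and 5. The groups did not overlap, and the spread within each group was small beside the gap. On the log2(TPM + 1) scale the change was 1.49 (SE 0.0978, limma adjusted p = 1.90e-07), with means of 338 ± 24.1 TPM at P24 and 120 ± 10.7 TPM at P14 (SD, n = 4 each), a ratio of 2.82. The call held in each of 14 alternative fits, with log2 changes of 1.43 to 1.77. With rmIl22, Ccl25 had 261, 140 and 259 TPM in libraries 1, 2 and 3, against 172, 182 and 177 TPM with PBS. Libraries 1 and 3 lay above all PBS libraries and library 2 below all of them, so the groups overlapped, and the change of 0.26 was not called (SE 0.240, adjusted p = 0.724). When rmIl22 library 2, the one with the high neutrophil markers, was left out, the log2 change was 0.55 with an adjusted p of 0.0165 in limma. That setting dropped the library below all PBS libraries and called 1324 of 14907 genes. Without rmIl22 library 1 or 3 instead, the change was 0.11 in both fits (limma adjusted p = 0.889 and 0.957). Ccl25 was called in 1 of 13 alternatives.

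The difference between the 2 effects, (rmIl22 minus PBS) minus (P24 minus P14), was tested in a fit of all 14 libraries, and the comparisons share no library. For Ccl25 it was -1.23 (SE 0.245, limma adjusted p = 0.00317), so its log2 change with age was larger than that with rmIl22. Of 15702 genes 23.8% were called in this test, 17.3% with a positive and 6.51% with a negative difference. The split was 2712 positive and 1022 negative, and with median-scaled TPM it was 2254 positive and 2182 negative. The mean level stood in the order P24, rmIl22, PBS, P14, and only rmIl22 and PBS, with means of 220 ± 69.1 and 177 ± 4.77 TPM (SD, n = 3 each), overlapped among neighbours in that order. The gene lies on chr8:4325210-4360020 of mm10 on the plus strand and overlaps Elavl1 on the other strand. Whether the counting used strand is not stated in the labels or files, so reads of overlapping genes may be mixed.

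Ccl28 had 26.2, 22.7, 21.9 and 24.5 TPM in P24 libraries 1, 2, 6 and 8, against 12.2, 13.5, 12.5 and 9.10 TPM in P14 libraries 1, 2, 4 and 5. Every P24 library lay above every P14 library. The means were 23.8 ± 1.93 TPM at P24 and 11.8 ± 1.90 TPM at P14 (SD, n = 4 each), and the log2 change was 0.96 (SE 0.122, limma adjusted p = 4.57e-05), called in all 14 alternatives. With rmIl22 it had 27.8, 41.5 and 16.5 TPM in libraries 1, 2 and 3, against 11.6, 13.6 and 11.6 TPM with PBS. Here too the groups did not overlap, and the rmIl22 libraries differed among themselves by more than the PBS libraries did. Groups without overlap were found for 21.1% of the 14456 genes tested between rmIl22 and PBS.

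The log2 change of Ccl28 with rmIl22 was 1.07 (SE 0.294), with an unadjusted p of 0.00770 and an adjusted p of 0.122 in limma, so it missed the threshold over all genes. It passed in 2 of 13 alternative fits: with all 14 libraries in 1 fit the adjusted p was 0.0128, and without rmIl22 library 3, the lowest of the 3, the change was 1.40 with an adjusted p of 0.0427. The authors' deposited table for rmIl22 lists 1102 genes, of which the highest adjusted p is 0.00999, and it holds Ccl28 with a log2 fold change of 1.28 and an adjusted p of 9.64e-05. The difference between the age and rmIl22 effects was 0.11 for Ccl28 (SE 0.311, limma adjusted p = 0.828), and its sign was reversed with median-scaled TPM (-0.10) and without rmIl22 library 2 (-0.20). The gene lies on chr13:119623819-119654359 on the plus strand.

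**Figure D2:**
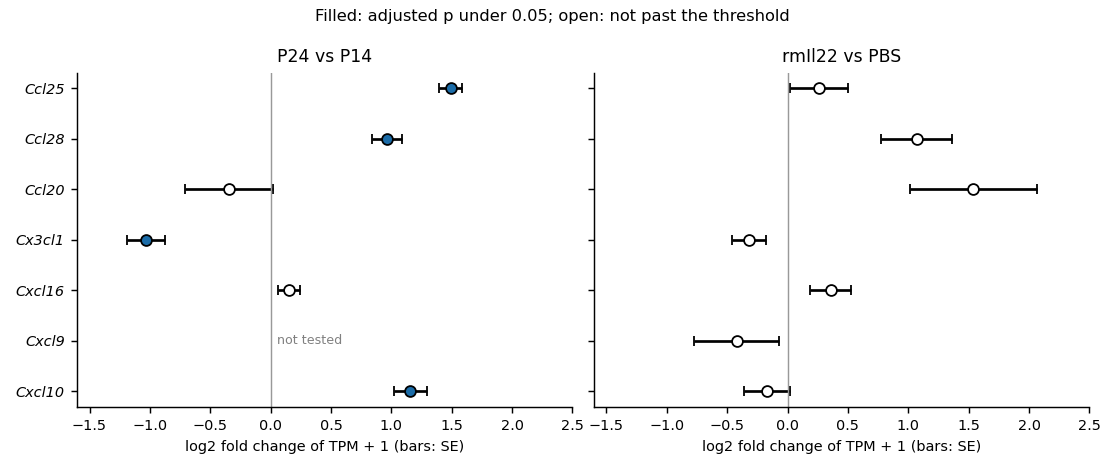
Change of the 7 chemokines that entered a fit across all genes, as log2 fold change of TPM + 1 with bars of 1 SE, for P24 vs P14 on the left and rmIl22 vs PBS on the right; filled points have an adjusted p under 0.05 in limma and open points do not. Filled points lie at 1.49 for Ccl25, 0.96 for Ccl28, 1.16 for Cxcl10 and -1.03 for Cx3cl1, all in the age comparison, and Cxcl9 was too low to be tested there.

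None of the 7 chemokines that passed the filter between rmIl22 and PBS was called in limma or with voom on recovered reads, where 2.69% of all genes tested were called, 0.443% as higher and 2.25% as lower. At an unadjusted p under 0.05, 2 of the 7 passed, Ccl20 and Ccl28, as did 15.5% of all genes. Ccl20 had 45.8, 8.52 and 16.8 TPM in rmIl22 libraries 1, 2 and 3, against 7.75, 5.68 and 4.53 TPM in the PBS libraries. The groups did not overlap, but library 2 was only just above the highest PBS library, while library 1 was far above it. The log2 change was 1.54 (SE 0.524), with an unadjusted p of 0.0209 and an adjusted p of 0.207 in limma. Without rmIl22 library 2 the change was 2.07 with an adjusted p of 0.0152, and over all 13 alternatives the adjusted p ranged from 0.0152 to 0.608.

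With age Ccl20 had no single direction. It had 6.17, 4.73, 12.7 and 21.0 TPM in P24 libraries 1, 2, 6 and 8, against 18.2, 14.0, 9.52 and 9.58 TPM in P14 libraries 1, 2, 4 and 5. The P24 libraries held both the lowest and the highest value, and the log2 change was -0.34 (SE 0.364, limma adjusted p = 0.434). Ccl20 is known for its expression in epithelium over Peyer's patches, so markers of follicular B cells were summed beside it. That sum was 97.5, 4.71, 3.36 and 127 TPM in P24 libraries 1, 2, 6 and 8, and 27.9, 2.57, 4.66 and 30.3 TPM in P14 libraries 1, 2, 4 and 5. In the injected mice it was 2.49, 3.72 and 25.3 TPM in rmIl22 libraries 1, 2 and 3, against 54.1, 11.5 and 41.2 TPM in PBS libraries 1, 2 and 3, so the rmIl22 library with the most Ccl20 had the lowest B cell sum of the 6. The markers of M cells and follicle epithelium summed to 237, 179 and 168 TPM in rmIl22 libraries 1, 2 and 3, against 162, 157 and 185 TPM in PBS libraries 1, 2 and 3. Members of that list went different ways. Pglyrp1, an antibacterial protein also found outside M cells, was called higher with rmIl22 (log2 change 1.51, limma adjusted p = 0.0171), though not in 4 of 13 alternatives. Gp2, a defining receptor of mature M cells, had 3 reads in each rmIl22 library, against 30, 20 and 29 reads in PBS libraries, and was too low for the fit. Spib, a transcription factor of M cells and B cells, had 0.752, 1.15 and 2.89 TPM with rmIl22, against 7.27, 2.11 and 6.20 TPM with PBS, a change of -1.22 that was not called (limma adjusted p = 0.228). The part of lymphoid tissue in the level of Ccl20 was not tested. The gene lies on chr1:83116766-83119167 on the plus strand.

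Cx3cl1, also called fractalkine, was the second most abundant member and the one that fell with age. It had 49.3, 57.4, 40.1 and 38.1 TPM in P24 libraries 1, 2, 6 and 8, against 84.3, 109, 112 and 76.5 TPM in P14 libraries 1, 2, 4 and 5. All P24 libraries lay below all P14 libraries. The means were 46.2 ± 8.87 TPM at P24 and 95.6 ± 17.8 TPM at P14 (SD, n = 4 each), and the log2 change was -1.03 (SE 0.157, limma adjusted p = 1.84e-04). The median over all genes tested was -0.25 in this comparison, and with each library scaled to a common median the change of Cx3cl1 was -0.75 with an adjusted p of 0.00105. With rmIl22 it had 79.1, 99.5 and 77.2 TPM in libraries 1, 2 and 3, against 111, 95.2 and 113 TPM with PBS, and the change of -0.32 was not called (SE 0.138, adjusted p = 0.331). The difference between the effects was 0.71 (SE 0.233, limma adjusted p = 0.0404), but it passed in only 5 of 19 alternatives, where the adjusted p ranged from 0.00636 to 0.106.

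Endothelium and neurons, both of which can express Cx3cl1, had markers that moved in the same direction. The 5 endothelial markers were all called lower at P24, with a summed level of 51.1 to 66.3 TPM at P24 against 79.3 to 110 TPM at P14. The 5 markers of enteric neurons and glia were also all called lower, with sums of 6.10 to 8.95 TPM at P24 against 32.7 to 44.7 TPM at P14. Sox10 among them passed the filter only through the P14 libraries. Ret, a receptor tyrosine kinase of enteric neurons, fell the most of these, by 2.68 on the log2 scale, and the endothelial marker Plvap was not called with median-scaled TPM. The part of these cells in the fall of Cx3cl1 was not tested. The gene lies on chr8:94772009-94782427 on the plus strand.

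Cxcl16, the membrane-bound ligand of Cxcr6, differed little between the groups. It had 22.5, 20.9, 18.6 and 20.5 TPM in P24 libraries 1, 2, 6 and 8, against 19.2, 17.9, 18.7 and 18.2 TPM in P14 libraries 1, 2, 4 and 5. The log2 change was 0.15 (SE 0.0897, limma adjusted p = 0.171). With median-scaled TPM the change was 0.42 and passed, with an adjusted p of 0.00253, and the authors' deposited table gives it a log2 fold change of 0.47 and an adjusted p of 0.0113. In the injected mice it had 24.7, 27.8 and 21.1 TPM with rmIl22, against 16.1, 23.5 and 17.6 TPM with PBS, and the change of 0.36 was not called (SE 0.169, adjusted p = 0.381). Cxcl16 lies on chr11:70453983-70459984 on the minus strand and overlaps Zmynd15 on the plus strand.

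The other 5 chemokines lie on chromosome 5 and were scarce, so that each value rests on few reads. Cxcl1 (chr5:90891241-90893115) and Cxcl2 (chr5:90903871-90905938) lie 10.8 kb apart on the plus strand, with Cxcl5 (chr5:90759360-90761624) 130 kb before Cxcl1. Cxcl9 (chr5:92321347-92328079) and Cxcl10 (chr5:92346638-92348889) lie 18.6 kb apart on the minus strand, and Cxcl10 lies inside Art3, which runs on the plus strand. Cxcl1, Cxcl2 and Cxcl10 are textbook targets of NF-kappaB, and Cxcl10 also of interferon-activated factors. Their promoters are shown because the neighbours Cxcl1 and Cxcl2 carry the same NF-kappaB letters near the start, and that of Cxcl9 because it is the neighbour of Cxcl10. The sequences are 250 bases before each start from RefSeq (GRCm38.p6), on the gene's strand, and capitals mark matches to GGGANNTTCC (NF-kappaB) or GAAANNGAAA (an interferon-stimulated response element, ISRE).
Cxcl1, chr5:90890995-90891244, plus strand: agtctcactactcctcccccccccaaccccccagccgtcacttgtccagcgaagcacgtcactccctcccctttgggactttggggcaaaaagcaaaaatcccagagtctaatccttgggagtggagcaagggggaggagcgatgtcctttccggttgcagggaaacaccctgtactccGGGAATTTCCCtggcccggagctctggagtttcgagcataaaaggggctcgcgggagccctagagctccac
Cxcl2, chr5:90903649-90903898, plus strand: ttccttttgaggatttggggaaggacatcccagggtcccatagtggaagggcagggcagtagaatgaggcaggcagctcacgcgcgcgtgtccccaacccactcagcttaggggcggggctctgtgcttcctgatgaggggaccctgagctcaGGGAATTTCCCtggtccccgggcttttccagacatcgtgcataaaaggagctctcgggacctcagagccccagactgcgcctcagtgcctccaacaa
Cxcl10, chr5:92348890-92349139, minus strand: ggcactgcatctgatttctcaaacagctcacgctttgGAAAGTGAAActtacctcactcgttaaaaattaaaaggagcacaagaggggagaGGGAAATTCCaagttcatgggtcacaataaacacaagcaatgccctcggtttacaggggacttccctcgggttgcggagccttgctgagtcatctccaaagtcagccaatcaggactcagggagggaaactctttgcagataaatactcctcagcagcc
Cxcl9, chr5:92328080-92328329, minus strand: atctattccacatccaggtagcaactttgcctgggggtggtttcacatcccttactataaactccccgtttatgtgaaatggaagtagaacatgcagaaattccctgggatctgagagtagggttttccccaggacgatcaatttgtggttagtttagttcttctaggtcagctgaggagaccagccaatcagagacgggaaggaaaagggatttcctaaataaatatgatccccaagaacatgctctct

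In Cxcl1 and Cxcl2 the run GGGAATTTCCC holds 2 overlapping matches, 1 on each strand, and begins 71 bases before the start in Cxcl1 and 97 bases before it in Cxcl2. In Cxcl10, GGGAAATTCC begins 159 bases and GAAAGTGAAA 213 bases before the start. Both strands were searched, together with TTCNNNGAA for STAT factors. Of the 32544 promoter windows of the same length, 1.21% held the NF-kappaB letters, 2.98% the ISRE letters and 7.04% the STAT letters. The table held 9 windows for 8 of the 10 genes, and none of the 9 held the STAT letters in these 250 bases. A match describes the letters and is no measurement of binding.

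Of the neutrophil attractants, Cxcl2 was higher in every P24 library than in any P14 library, on few reads. Cxcl2 had 0.202, 0.325, 0.255 and 0.389 TPM in P24 libraries 1, 2, 6 and 8, from 10 to 17 reads, against 0.0818, 0.0216, 0.0471 and 0.0591 TPM in P14 libraries 1, 2, 4 and 5, from 1 to 4 reads. The groups did not overlap, and the ratio of the means was 5.58. An exact permutation test, two-sided and unadjusted, gave p = 0.0286, the smallest that 4 against 4 libraries allow. Cxcl1 had 0.290, 0.478, 0.798 and 0.832 TPM in P24 libraries 1, 2, 6 and 8, from 13 to 34 reads, against 0.226, 0.119, 0.286 and 0.370 TPM in P14 libraries 1, 2, 4 and 5, from 5 to 17 reads. These groups overlapped, with an exact permutation p of 0.0571 for a ratio of 2.397. Cxcl5 had 0.112, 0.390, 0.142 and 1.24 TPM at P24, against 0.295, 0.192, 0.157 and 0.197 TPM at P14. Its P24 libraries held both the lowest and the highest value, and the exact permutation p was 0.486. The authors' deposited table gives log2 fold changes of 2.76 for Cxcl2, 1.55 for Cxcl1 and 1.40 for Cxcl5, with adjusted p-values of 0.0104, 0.0754 and 0.293. With no filter, Cxcl2 was called in limma (log2 change 0.29, adjusted p = 0.00193). The neutrophil markers summed to 9.64 to 16.4 TPM at P24, against 26.4 to 58.1 TPM at P14, with no overlap. Of the 3 tested, 2 were called lower at P24, against 43.7% of all genes tested. These 2 were Retnlg, by a change of -1.13, and Camp, by -3.03, which passed the filter only through the P14 libraries. The third, S100a9, was not called (log2 change -0.96, limma adjusted p = 0.0577). Ly6g went the other way, with 0 reads in each P14 library and 0 to 6 reads at P24. Csf3r overlapped, with 14 to 35 reads at P24 against 31 to 41 reads at P14. In P14 library 2, Camp had 193 and Retnlg 189 reads, against 2 of S100a8 and 6 of S100a9.

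In the injected mice these 3 chemokines were high in 1 library. Cxcl1 had 0.153, 2.07 and 0.211 TPM in rmIl22 libraries 1, 2 and 3, against 0.0996, 0.115 and 0.0602 TPM in PBS libraries. Cxcl2 had 0.0464, 2.14 and 0.167 TPM in rmIl22 libraries, against 0.0451, 0.146 and 0.109 TPM in PBS libraries. Cxcl5 had 0.232, 5.30 and 0.424 TPM in rmIl22 libraries, against 0.200, 0.881 and 0.242 TPM in PBS libraries. Library 2 of rmIl22 held 84.8% of the group's reads of Cxcl1, 90.8% of those of Cxcl2 and 88.8% of those of Cxcl5. It exceeded the highest of the other 5 injected libraries 9.84-fold for Cxcl1, 12.8-fold for Cxcl2 and 6.01-fold for Cxcl5. The rmIl22 group did not overlap PBS for Cxcl1 and did for Cxcl2 and Cxcl5. Exact permutation tests, two-sided and unadjusted, gave p = 0.1 for Cxcl1, the smallest that 3 against 3 libraries allow, 0.4 for Cxcl2 and 0.6 for Cxcl5. Without library 2 the rmIl22 mean was 0.182 TPM for Cxcl1, 0.107 for Cxcl2 and 0.328 for Cxcl5, against PBS means of 0.0917, 0.100 and 0.441 TPM. The authors' deposited table lists Cxcl1 for rmIl22 with a log2 fold change of 3.25 and an adjusted p of 0.00623.

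The same rmIl22 library was the highest of the 6 in 5 of the 8 neutrophil markers, S100a8, S100a9, Csf3r, Ly6g and Ngp, and in several cytokine genes. S100a8, a calcium-binding protein abundant in neutrophils, had 400 TPM there, against at most 53.3 TPM in the other 5, and its partner S100a9 had 627 TPM, against at most 97.3 TPM. The receptor Cxcr2 had 7.42 TPM, against at most 1.31 TPM, and the cytokine receptor Csf3r 6.71 TPM, against at most 1.67 TPM. Il1b had 12.3 TPM, against at most 4.56 TPM, and Tnf had 4.11 TPM, against at most 1.21 TPM. Ccl2, Ccl3 and Ccl4, which attract monocytes and T cells, were also highest there, with 3.42, 3.12 and 1.51 TPM. The other 3 markers were not highest there. Retnlg had 38.5 TPM there, against 44.2 TPM in rmIl22 library 3, and Camp, a granule peptide, had 1.05 TPM there, against 4.49 TPM in rmIl22 library 3 and 3.19 to 8.56 TPM with PBS. Mpo had at most 14 reads in any injected library, with 4 in library 2. S100a8 and S100a9 made up most of the marker sum of 1079 TPM. The part of this library's state in the rmIl22 comparison was not tested beyond leaving it out.

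**Figure D3:**
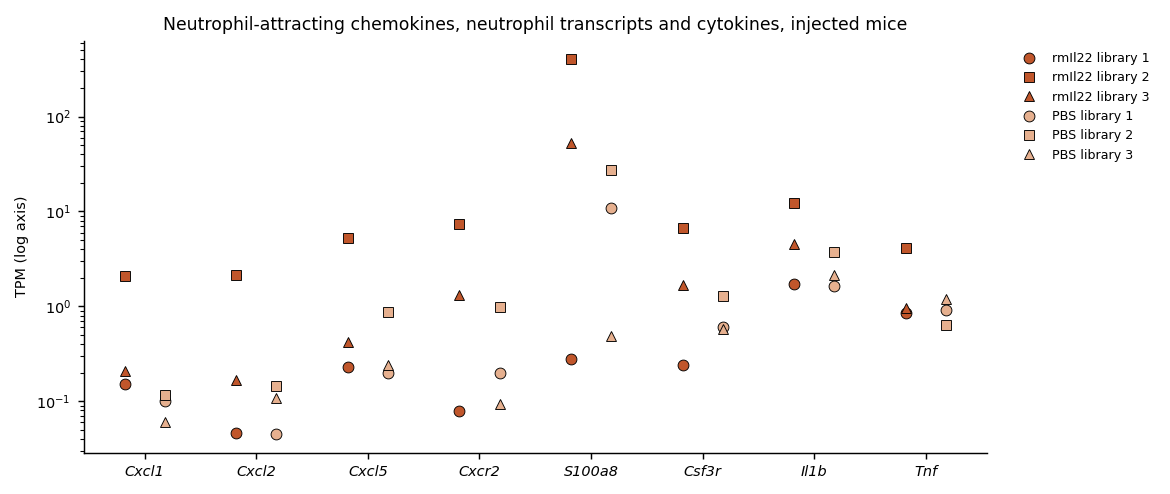
Levels in TPM on a log axis of 3 neutrophil-attracting chemokines, of neutrophil transcripts and of 2 cytokines in each injected library, with rmIl22 libraries left of PBS libraries and 1 symbol for each library number. The dark square, rmIl22 library 2, is the highest of the 6 for every gene shown, with 2.07 TPM of Cxcl1, 2.14 TPM of Cxcl2 and 5.30 TPM of Cxcl5.

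Cxcl10 and Cxcl9, which interferon gamma induces, were higher at P24 than at P14. Cxcl10 had 2.32, 2.96, 2.38 and 3.25 TPM in P24 libraries 1, 2, 6 and 8, against 0.845, 0.496, 0.692 and 0.634 TPM in P14 libraries 1, 2, 4 and 5. The groups did not overlap, and the means were 2.73 ± 0.452 TPM at P24 and 0.667 ± 0.144 TPM at P14 (SD, n = 4 each), a ratio of 4.09. The log2 change of TPM + 1 was 1.16 (SE 0.134, limma adjusted p = 2.23e-05), which understates the ratio at so low a level. Art3, on the other strand of the same region, had 1.76 to 3.26 TPM at P24 and 2.62 to 3.99 TPM at P14.

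Cxcl9 had 1.62, 1.78, 0.817 and 2.12 TPM in P24 libraries 1, 2, 6 and 8, against 0.533, 0.400, 0.710 and 0.757 TPM in P14 libraries 1, 2, 4 and 5. P24 library 6 lay just above the highest P14 library. The ratio of the means was 2.64, with an exact permutation p of 0.0286, two-sided and unadjusted, the smallest possible. Cxcl9 was too low for the age fit, but limma called it higher in each of 7 alternatives in which it was tested, with adjusted p-values from 0.00136 to 0.0380. With 1 library left out, it passed the filter only through P24 libraries 1, 2 and 8, where it was high. The setting without P24 library 6 also dropped its lowest P24 value. The authors' deposited table gives Cxcl9 a log2 fold change of 1.69 and an adjusted p of 0.00105, and Cxcl10 a log2 fold change of 2.33 and an adjusted p of 8.33e-17. Groups without overlap, found here for both genes, were found for 52.4% of all genes tested with age.

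With rmIl22 neither gene was called. Cxcl10 had 1.13, 1.86 and 1.12 TPM with rmIl22, against 2.01, 1.69 and 1.28 TPM with PBS, and its change was -0.17 (SE 0.192, limma adjusted p = 0.782). Cxcl9 had 0.445, 1.83 and 0.769 TPM with rmIl22, against 0.696, 2.71 and 1.76 TPM with PBS, and its change was -0.42 (SE 0.353, limma adjusted p = 0.688). In both genes the groups overlapped, and library 2 was the highest of the rmIl22 libraries. The difference between the rmIl22 and the age effect was -1.33 for Cxcl10 (SE 0.217, limma adjusted p = 8.32e-04), called in all 19 alternatives. For Cxcl9 it was -1.09 (SE 0.389, adjusted p = 0.0566), called in 6 of 19 alternatives.

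The receptors of these chemokines, which sit mostly on white blood cells, were low. Only 3 of 9 passed the filter for the age comparison, and of these Cx3cr1 and Ccr3 were called lower at P24, as were 43.7% of all genes tested. Cx3cr1, which marks intestinal macrophages, had 7.76, 7.25, 5.47 and 5.53 TPM in P24 libraries 1, 2, 6 and 8, against 10.3, 9.31, 12.6 and 10.3 TPM in P14 libraries 1, 2, 4 and 5. The groups did not overlap, and the log2 change was -0.64 (SE 0.134, limma adjusted p = 0.00172), called in all 14 alternatives. Its ligand Cx3cl1 had also fallen. Macrophage and dendritic cell markers summed to 128 to 177 TPM at P24 against 179 to 216 TPM at P14. Of the 6 tested, 2 were called lower, Csf1r by -1.92 and Cd68 by -0.71, against 43.7% of all genes tested. The others, Adgre1, C1qa, C1qb and Itgax, were not called, with log2 changes of 0.03, 0.06, 0.23 and -0.23. Ccr3, a receptor of eosinophils that Ccl28 can bind, had 1.52 to 2.21 TPM at P24 against 1.93 to 4.33 TPM at P14, with a log2 change of -0.55 (SE 0.179, limma adjusted p = 0.0199). The groups overlapped, and the call was lost in 7 of 14 alternatives, with an adjusted p of 0.0992 on median-scaled TPM.

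Ccr9, the receptor of Ccl25, had 0.672 to 1.40 TPM at P24 against 0.398 to 0.940 TPM at P14, with overlap, while Ccl25 itself was higher in every P24 library. Cxcr6 had 2.44 to 3.57 TPM at P24 against 2.24 to 4.65 TPM at P14 (log2 change -0.22, limma adjusted p = 0.303). Cxcr3 had 0.356 to 0.676 TPM at P24 against 0.517 to 1.06 TPM at P14, also with overlap. Ccr6 had 2.25, 0.193, 0.109 and 3.22 TPM in P24 libraries 1, 2, 6 and 8, and the 2 high libraries were those with the high B cell sums of 97.5 and 127 TPM. Cxcr2 had at most 0.171 TPM at P24 and at most 0.240 TPM at P14, and Ccr10 at most 0.290 TPM at P24 and at most 0.141 TPM at P14. Cxcr1 had at most 2 reads in any library. With rmIl22 none of the 3 receptors tested was called in limma or voom, none had an unadjusted p under 0.05, and Cx3cr1 had 12.0, 8.23 and 11.2 TPM, against 9.14, 11.1 and 12.3 TPM with PBS.

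**Figure D4:**
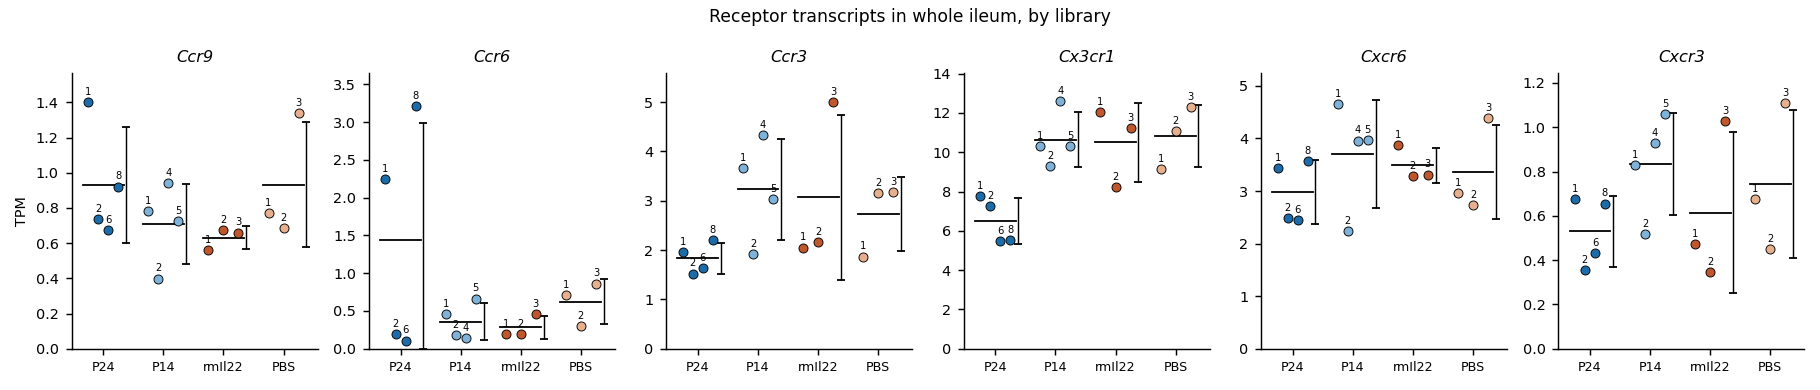
Levels in TPM of 6 receptors of the chemokines in every library, on linear axes that start at 0; points are libraries with their number, lines are group means and bars are 1 SD, with lower ends cut at 0 (n = 4 at P24 and P14, n = 3 for rmIl22 and PBS). The P24 points of Cx3cr1, from 5.47 to 7.76 TPM, lie below all P14 points, and the P24 points of Ccr6 fall at 2.25 and 3.22 TPM in libraries 1 and 8 and at 0.193 and 0.109 TPM in libraries 2 and 6.

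Adam10, a sheddase of Cx3cl1 and Cxcl16, had 49.9 to 76.6 TPM at P24 against 39.4 to 51.2 TPM at P14 (log2 change 0.34, SE 0.145, limma adjusted p = 0.0659). Adam17 had 11.6 to 14.1 TPM at P24 against 11.5 to 15.9 TPM at P14 (log2 change -0.05, SE 0.117, limma adjusted p = 0.716). Of the 4 atypical receptors and sheddases tested, only Ackr3, a scavenger of Cxcl12, was called, against 58.3% of all genes tested. Ackr3 had 3.56 to 4.55 TPM at P24 against 5.01 to 6.24 TPM at P14, a change of -0.49 with a limma adjusted p of 0.00333. With rmIl22 none of 5 was called in limma or voom, and none had an unadjusted p under 0.05.

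Among 27 other chemokine genes, 14 passed the filter with age, of which 4 were called higher and 5 lower. Of all genes tested 58.3% were called, 14.6% as higher and 43.7% as lower. The median log2 change of the 14 was 0.18, against -0.25 over all genes tested. Ccl8, a chemokine that macrophages can make, had 3.02, 2.74, 1.98 and 4.53 TPM at P24, against 0.166, 0.0875, 0.191 and 0.160 TPM at P14 (log2 change 1.79, limma adjusted p = 6.03e-06). Xcl1, which draws cross-presenting dendritic cells, rose by 1.27, with 1.43 to 3.91 TPM at P24 against at most 0.559 TPM at P14. Both genes passed the filter only through the P24 libraries. Ccl24 and Ccl11, both eotaxins, fell by 1.28 and 1.01, and Cxcl12, the ligand of Cxcr4 made by stromal cells, fell by 1.19. Of 6 fibroblast markers 5 were called lower at P24, against 43.7% of all genes tested. Dcn was not called (log2 change -0.36, limma adjusted p = 0.173). Fibroblast markers summed to 367 to 489 TPM at P24 against 598 to 1159 TPM at P14. Their part in the falls of these chemokines was not tested. Ccl27a, another of the 5 chemokines called lower, was called in only 7 of 14 alternatives. Ccl6 was the most abundant of those called higher, with 258 to 287 TPM at P24 against 185 to 220 TPM at P14. None of 15 other chemokines tested was called with rmIl22 in limma or voom, with a median change of -0.11 against -0.05 over all genes tested. An unadjusted limma p under 0.05 was found for 1 of the 15, Ccl24, and for 15.5% of all genes. The rmIl22 change of Ccl24 was -1.14 (SE 0.241, limma adjusted p = 0.0592), and it was called in 3 of 13 alternatives.

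Genes of NF-kappaB and IL-17 signalling, known to control Cxcl1, Cxcl2 and Ccl20, were mostly higher at P24. Of 13 tested 10 were called higher and none lower, with a median log2 change of 1.21. Over all genes tested 14.6% were called higher and 43.7% lower, with a median of -0.25. Tnf, 1 of the 10, passed the filter only through the P24 libraries. Il17rc, a subunit of the IL-17 receptor, had 92.9, 79.2, 85.1 and 74.1 TPM at P24, against 11.5, 14.2, 15.7 and 12.7 TPM at P14, a change of 2.53 (limma adjusted p = 6.43e-09). Zc3h12a, an RNase that degrades cytokine transcripts, had 17.9, 19.2, 19.3 and 22.4 TPM at P24, against 2.88, 4.65, 4.12 and 3.98 TPM at P14, a change of 2.08 (limma adjusted p = 1.10e-07). Il18, an epithelial cytokine, rose by 1.83. With rmIl22 only Zc3h12a of 13 was called, with 11.5, 15.1 and 8.31 TPM against 4.26, 4.41 and 4.49 TPM with PBS (log2 change 1.20, limma adjusted p = 0.0287). With voom 2 of the 13 were called, Zc3h12a and Birc3, an inhibitor of apoptosis, and 6 of 13 had an unadjusted p under 0.05 in limma, against 15.5% of all genes. The limma call of Zc3h12a was lost in 6 alternatives, among them those that left out any 1 of the PBS libraries.

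Genes of the interferon gamma axis, which controls Cxcl9 and Cxcl10, were called higher in 5 and lower in 1 of 9 tested at P24, with a median of 0.50. Over all genes tested 14.6% were called higher and 43.7% lower, with a median of -0.25. Irf1, among those called higher, was called in only 7 of 14 alternatives. Ido1, a tryptophan-degrading enzyme, had 2.68, 3.16, 3.57 and 2.93 TPM at P24, against 0.0735 TPM at most at P14 (log2 change 1.99, limma adjusted p = 1.28e-07), and it passed the filter only where it was high. Socs1, a feedback inhibitor, rose by 0.88 and Ifngr1, a receptor subunit, by 0.67. Ifng itself had at most 0.208 TPM at P24 and at most 0.0701 TPM at P14. With rmIl22 none of 8 was called in limma or voom, and 2 had an unadjusted p under 0.05 in limma, against 15.5% of all genes. Markers of T and intraepithelial lymphocytes summed to 17.5 to 42.5 TPM at P24 against 6.47 to 17.3 TPM at P14, and those of plasma cells to 64.1 to 318 TPM at P24 against 5.03 to 28.2 TPM at P14. Of these, 3 of 7 lymphocyte markers and 3 of 4 plasma cell markers were called higher, against 14.6% of all genes tested. Among those called, Gzma, Gzmb and Jchain passed the filter only through the P24 libraries. The third lymphocyte marker, Trac, was called in only 9 of 14 alternatives, and its groups overlapped. Their part in the levels of the chemokines was not tested.

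Over the 14 libraries, 14155 genes that passed the filters of both comparisons were ranked by Pearson correlation of log2(TPM + 1) with each called chemokine, as a description. The 14 libraries fall into 4 groups, so genes that differ between the groups in the same way score high. The most like Ccl25 were Rhbg, an ammonium transporter (r = 0.993), and Tmem117 (r = 0.981). The most like Ccl28 were Bmp2, a growth factor (r = 0.951), and Prom1, a membrane glycoprotein (r = 0.934). Bmp2 averaged 22.0 ± 2.56 TPM at P24 and 11.6 ± 1.139 TPM at P14 (SD, n = 4 each), and 22.7 ± 4.98 TPM with rmIl22 and 12.8 ± 0.960 TPM with PBS (SD, n = 3 each). The most like Cxcl10 were Gm14851 (r = 0.940) and Il18bp, the decoy receptor of IL-18 (r = 0.930). The most like Cx3cl1 were Cdc42ep4, an effector of the GTPase Cdc42 (r = 0.992), and Mtmr1, a lipid phosphatase (r = 0.987).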

How the data were processed

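The authors' deposited table gives TPM per gene symbol and library. Per the submitters' processing notes, FastQC 0.11.2, STAR 2.4.0f, HTSeq 0.6.1p1 and DESeq2 1.14 were used with the mm10 genome. The step of each tool, the gene annotation and the use of strand are not stated in the labels or headers. The authors' deposited comparison tables, with log2 fold changes and adjusted p-values, write decimal commas, which were read as points. Of 46882 entries 27 had symbols turned into dates and were left out. The columns of P14 and P24 libraries are numbered otherwise than the replicates in the labels and were assigned to groups only. The labels call the replicates biological.

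Whole reads were recovered as the multiples behind the TPM (within 0.01 of a whole number for all 31189 genes with any TPM). The smallest whole numbers in proportion were taken, so a gene whose reads share a common factor can be undercounted.

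The test was limma 3.58.1 (R 4.3.3, intensity trend) on log2(TPM + 1), on each comparison's own libraries. Genes needed at least 1 TPM in at least 4 (P24 vs P14) or 3 (rmIl22 vs PBS) libraries, or, for the difference between the effects, which used all 14 libraries, in at least 3. Tests were two-sided, with Benjamini-Hochberg adjustment over all genes tested and a threshold of 0.05. Chemokines under the filter had an exact permutation test of mean TPM, and its p was not adjusted. Alternatives were a pseudocount of 0.1, no filter, TPM scaled to a common median, voom on recovered reads, all 14 libraries in 1 fit, a replicate block, each library left out, and, chosen after seeing the data, a term for libraries with Xist above 10 TPM. The script was tested on simulated data.

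The chemokines and all lists were chosen with earlier results of these data known. Named from each list were up to 3 called genes with the largest change, or all receptors. Genes named beyond this rule, Ccl6, Ccl11, Ccl27a, Cd68, Adgre1, C1qa, C1qb, Itgax, Irf1, Plvap, Ifng, Tnf, Birc3, Gzma, Gzmb, Trac, Jchain, Gp2, Spib, Camp, Retnlg, Sox10 and the genes high in rmIl22 library 2, were chosen after their values were seen. Coordinates are from GENCODE vM21 on mm10 and promoters from RefSeq.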

Additional observations from a re-analysis of the deposited data

Results flagged for a closer look

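The difference between the rmIl22 and the age effect passed the threshold in limma for 3 chemokines: -1.33 for Cxcl10 (adjusted p = 8.32e-04), -1.23 for Ccl25 (adjusted p = 0.00317) and 0.71 for Cx3cl1 (adjusted p = 0.0404). In groups of 4 libraries, the highest or lowest value was compared with its nearest neighbour over the group's range by Dixon's test at the 95% level, for 38 groups of chemokine and receptor values. Chance marks about 1 in 20 such groups. The highest P24 library stood apart for Ccr10, with 0.290 TPM against 0.1095 TPM in the next library, and for Cxcr1, with 0.0280 TPM against 0 in the other 3 libraries. The Cxcr1 value rests on 1 read and the Ccr10 value on 12 reads.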

How the results depend on the processing

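All 4 age calls among the chemokines kept their direction and side of the threshold in all 14 alternatives, and the number of genes called with age ranged from 7569 to 9086 with 1 library left out, against 8546. Median scaling turned the split of all age calls into 4111 higher and 4359 lower, against 2146 and 6400, and that of the difference between the effects into 2254 positive and 2182 negative, against 2712 and 1022. The rmIl22 comparison depended on single settings: 389 genes were called, against 98 with no filter, 1039 with all 14 libraries in 1 fit, 122 with the Xist term and 4 to 1324 with 1 library left out. No chemokine was called there, against 1 with all 14 libraries (Ccl28) and 0 to 2 with 1 library left out. With the Xist term the change of Ccl20 was 2.77. All PBS libraries and, of the rmIl22 group, only library 1 had Xist below 10 TPM. With that term the rmIl22 change of every gene therefore rests on rmIl22 library 1 against PBS. That fit cannot separate the treatment from this single mouse. The number of genes called was 14, 118 and 4 without PBS libraries 1, 2 and 3. It was 129, 1324 and 121 without rmIl22 libraries 1, 2 and 3. The difference between the effects was called for 3734 genes, and for 2400 to 4997 with 1 library left out, the lowest without PBS library 2. It was called for 3 chemokines, and for 2 to 4 with 1 library left out, and that of Ccl28 changed sign to -0.10 with median scaling and ranged from -0.20 (without rmIl22 library 2) to 0.44 with 1 library left out. The causes were not tested. With age, Cxcl9 was untested but was called higher in 7 alternatives, with no filter, with all 14 libraries, without any 1 of the P14 libraries and without P24 library 6, and Cxcl2 in 1, with no filter. Where 1 library was left out, Cxcl9 passed the filter only through P24 libraries, where it was high. Over the chemokines that passed the filter, 277 values kept their side, 15 newly passed, 14 no longer passed and 2 reversed.

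With a replicate block, 280 genes and 0 chemokines were called between rmIl22 and PBS. Deviations of same-numbered libraries correlated at -0.0673, 0.333 and -0.0489, and those of differently numbered libraries at -0.338 to 0.405. With 3 libraries in each group these values cannot show whether the numbers pair animals. No paired analysis was possible for age because the column numbers are not the labels' replicate numbers. Cxcl1, Cxcl2 and Cxcl5 rest on 1 to 198 reads per library, which limits their precision.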
